A study of Homo sapiens and Homo sapiens
Mus musculus and Mus musculus with 9 samples.

Results

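The HOX genes are the protein-coding genes of the HOXA, HOXB, HOXC and HOXD clusters, and the deposited table held 38 of them by symbol among its 41713 genes, of which 19939 were protein-coding. The 38 were 11 genes of HOXA, 10 of HOXB, 8 of HOXC and 9 of HOXD. RNA-Seq was run on cells of 2 lines labelled as wild type, the human prostate cancer line C4-2B and the mouse osteoblast line MC3T3-E1. There were 3 libraries of C4-2B cells cultured alone, 3 of co-culture in which both lines were mixed at 1:30 (C4-2B to MC3T3-E1), and 3 of MC3T3-E1 cells alone. In its co-cultures the study used a C4-2B line carrying green fluorescent protein (GFP) and calls it C4-2B. The 3 MC3T3-E1 libraries were not analysed here. The study asked how osteoblasts change C4-2B cells, so human reads had to be separated from mouse reads in the co-culture, which was done with 3 pipelines named Xenome, XenofilteR and Kallisto. For each gene and pipeline, the authors' mean count, that is the mean of the counts divided by size factors over the libraries of C4-2B alone and of the co-culture, was used. A mean over both groups gives a level but no difference between them, so what follows is which HOX genes the human reads held and how the pipelines compared. Each group came from cell lines, and nothing in the labels says whether its 3 libraries came from separate cultures.

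HOX genes encode homeodomain transcription factors that set position along the body axis of the embryo and keep regional identity in adult tissue. Within a cluster they lie in the order of their paralogue numbers, with low numbers used in anterior parts of the body and high numbers (the posterior genes) in the trunk's end, the limbs and the urogenital tract. HOXB13 is the posterior gene of prostate epithelium, where it works beside the androgen receptor. All carry a homeobox, a coding stretch that is much alike between the genes and between species. Human and mouse reads of these genes can be hard to tell apart, there and in other shared stretches.

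How much human HOX sequence also occurs in mouse was measured with stretches of 31 bases, the length on which Kallisto matches reads by default. In the 38 HOX genes, a median of 8.13% of the distinct 31-base sequences of a gene's transcripts occurred in mouse transcripts, against 0.506% over 19778 protein-coding genes of the table, and 36 of the 38 HOX genes lay above that median. Over coding bases alone, the share inside such sequences ran from 0 in HOXD1 and HOXD13 to 85.4% in HOXC5, with a median of 41.9%. Shown next are 120-base coding windows of HOXB8, HOXA7 and HOXB13, each the window with the most shared bases in its gene. HOXB8 and HOXA7 were picked for the highest ratios of Kallisto mean to Xenome mean, and HOXB13 for the highest mean. HOXB8 entered that ratio only because Kallisto was high, so the windows are illustrations and not a comparison. They are written 5′ to 3′ on the coding strand, from GRCh38 with GENCODE release 44 exons, and capitals mark bases inside a 31-base sequence that also occurs in mouse transcripts.
HOXB8 (chr17:48614585.0-48614704.0, minus strand, exon 1 of 2): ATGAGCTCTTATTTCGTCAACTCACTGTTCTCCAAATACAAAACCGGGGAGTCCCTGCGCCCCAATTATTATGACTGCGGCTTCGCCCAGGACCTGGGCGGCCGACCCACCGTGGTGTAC
HOXA7 (chr7:27156426.0-27156545.0, minus strand, exon 1 of 2): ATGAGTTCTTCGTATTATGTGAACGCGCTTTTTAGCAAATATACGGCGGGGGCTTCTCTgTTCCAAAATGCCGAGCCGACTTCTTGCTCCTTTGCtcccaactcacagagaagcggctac
HOXB13 (chr17:48726836.0-48726955.0, minus strand, exon 2 of 2): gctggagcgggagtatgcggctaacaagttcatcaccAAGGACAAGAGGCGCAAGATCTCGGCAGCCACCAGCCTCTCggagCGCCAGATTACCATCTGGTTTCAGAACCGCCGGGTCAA
The HOXB8 window was shared over all 120 bases, the HOXA7 window over 94 and the HOXB13 window over 79. The HOXB8 and HOXA7 windows begin with ATG in exon 1 and are not homeobox sequence. In HOXC5 the longest unbroken run of shared coding bases was 256 bases, in HOXB5 158, in HOXB8 152 and in HOXA7 83, all longer than a 50-base read. In HOXB13 it was 41 bases, shorter than a read. The reads were paired, so a run longer than 1 read need not hold the whole pair. A run may also join 31-base sequences of different mouse transcripts. In all, 31 of the 38 HOX genes held a run of at least 50 bases, among them HOXC10 with 279 and HOXC6 with 272. Such runs were not counted over all protein-coding genes, so whether this is particular to HOX genes was not tested. Long runs were also found in genes whose Kallisto and Xenome means were nearly the same, with 182 bases in HOXA2 and 122 in HOXC9 and in HOXA13.

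The human values held the markers of a prostate cancer cell. Of 7 prostate cancer cell marker genes that the table listed, all had a mean count of at least 100 with each pipeline, from TRPM8 (a cation channel, 1897 with Xenome, 1894 with XenofilteR and 1934 with Kallisto) to KLK3 (prostate-specific antigen), the highest with Xenome and XenofilteR at 51038 and 51208. For Kallisto the highest was FOLH1 (prostate-specific membrane antigen) at 47752. Some osteoblast markers had reads in the human values as well. Of 9 such genes, 4 reached a mean of 10 with each pipeline. Over protein-coding genes, 66.9% reached 10 with Xenome and with XenofilteR, and 75.4% with Kallisto. With Xenome 2 of the 9 reached 100, against 4 with XenofilteR and 4 with Kallisto. Highest was COL1A1, a chain of type I collagen, at 3384 with Xenome, 4557 with XenofilteR and 2471 with Kallisto. ALPL, an alkaline phosphatase, was the lowest of these markers at 0.103 with each pipeline. Whether these come from mouse RNA was not tested.

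HOXB13 had by far the highest mean of the human HOX genes, HOXA10, HOXC6 and HOXC13 came next, and the HOXD genes had almost no reads. With Xenome, 23 of the 38 HOX genes had a mean count of at least 10, against 66.9% of all protein-coding genes. With XenofilteR it was 22, again against 66.9%, and with Kallisto 24, against 75.4%. The highest 4 genes were the same with each pipeline. The summed mean of the HOX genes was 18832 with Xenome, which was 0.0444% of the sum over all genes, and HOXB13 alone made up 55.9% of it. By cluster, HOXB held 59.8% of the Xenome sum, HOXC 20.7%, HOXA 19.5% and HOXD 0.0225%.

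**Figure D1:**
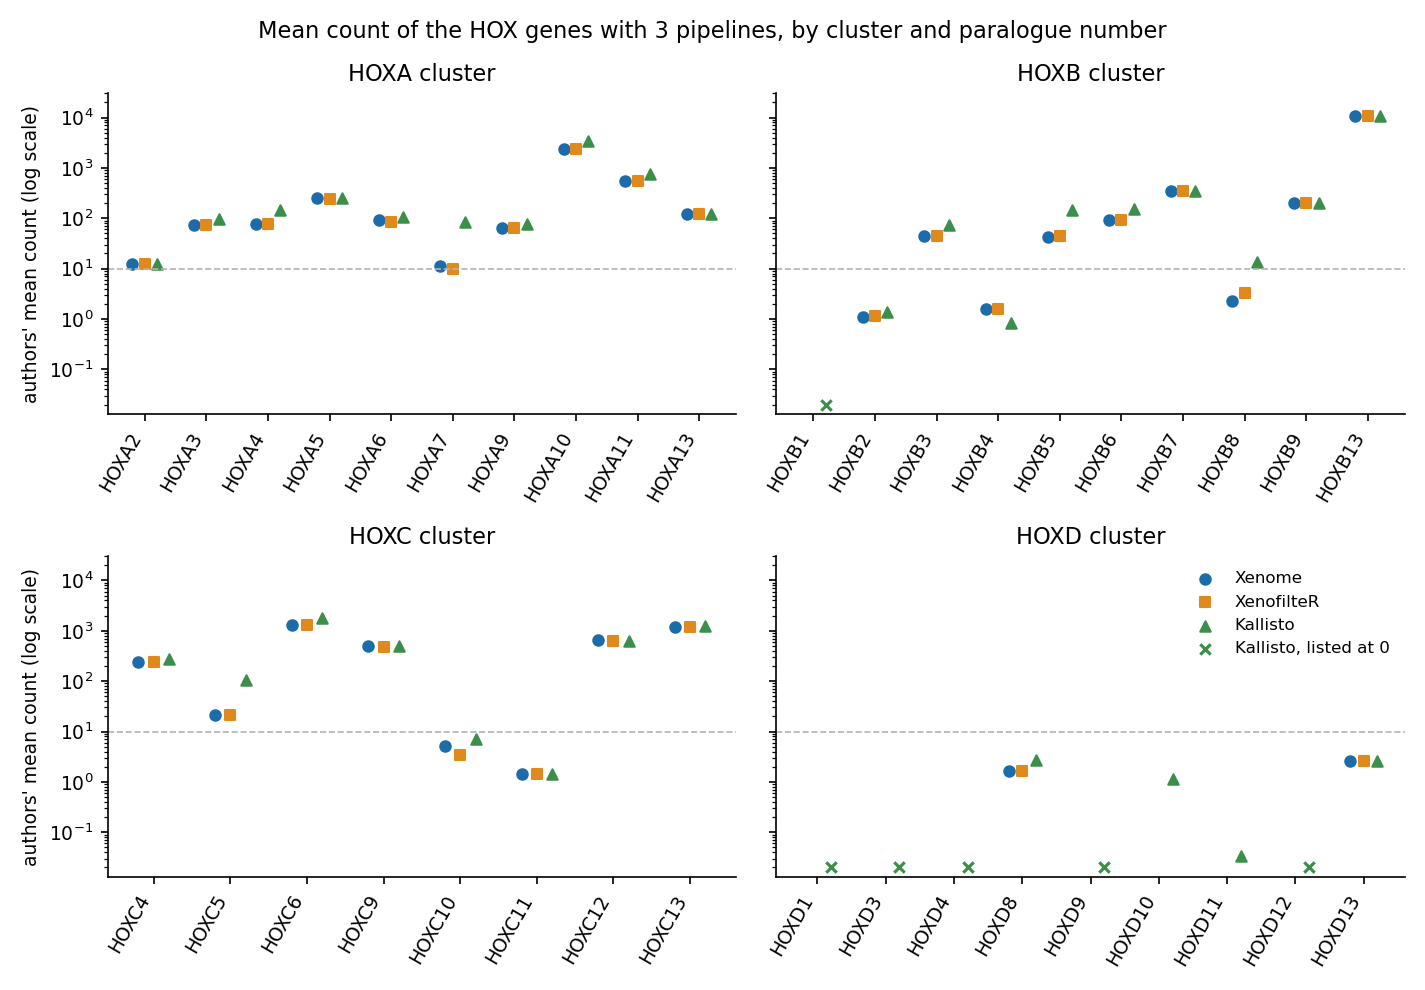
Authors' mean count (log scale) of 37 of the 38 HOX genes with Xenome, XenofilteR and Kallisto, in paralogue order within each cluster, with a dashed line at 10 and crosses for genes that Kallisto lists at 0. HOXB13 stands at about the same height with each pipeline, no HOXD gene reaches 10, and the Kallisto symbols of HOXA7, HOXB5, HOXB8 and HOXC5 lie above the others.

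HOXB13 (chr17:48724763-48729178, minus strand) had a mean count of 10532 with Xenome, 10493 with XenofilteR and 10510 with Kallisto. These differed by at most 0.372% in a gene whose coding sequence shared 12.7% of its bases with mouse transcripts. To compare genes, the Xenome mean was divided by coding length, which gave HOXB13 12362 per kb. That was 6.39 times the level of the next HOX gene, HOXA10, and higher than 96.9% of 17714 protein-coding genes with a Xenome mean. Divided by the length of the transcript instead, HOXB13 was 3.70 times the next gene, and by the union of exons 5.40 times, so the lead depends on the length used but the first rank does not. The other genes of paralogue group 13, which act in limb, hair and the genital tract, lay below it. Per kb of coding length, the level of HOXB13 was 10.1 times that of HOXC13, 120 times that of HOXA13 and 4849 times that of HOXD13. These folds also depend on the length used. Per kb of transcript the levels were 3466 for HOXB13, 515 for HOXC13, 24.0 for HOXA13 and 1.09 for HOXD13. The fold over HOXD13 is uncertain, since its Xenome mean of 2.62 fell to 1.74 with 1 library left out.

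Among posterior genes of HOXA (chromosome 7, minus strand), HOXA10, which patterns the reproductive tract, had a mean of 2378 with Xenome, 2393 with XenofilteR and 3397 with Kallisto. HOXA11, its neighbour with a role in limb and kidney, had 557, 554 and 745 with the same pipelines in that order. HOXA13, needed for the digits and the genital tubercle, had 120, 120 and 123. The drop from HOXA10 to HOXA13 was thus 19.8-fold by the Xenome mean, and HOXA9, on the other side of HOXA10, was lower still at 64.5, 64.6 and 76.4. Per kb of transcript the Xenome levels were 936 for HOXA10, 24.0 for HOXA13 and 31.2 for HOXA9. The drop was larger by that measure, and HOXA9 stood above HOXA13. HOXA9 and HOXA10 share exon bases with the same unnamed gene on their strand, so their values are uncertain to that extent.

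The remaining HOXA genes ranged widely, with the highest, HOXA5, a regulator of lung and gut development, at 252 with Xenome, 241 with XenofilteR and 253 with Kallisto. HOXA3, which patterns the neck and its glands, stood at 73.4, 72.6 and 97.9, and HOXA4 at 76.7, 75.9 and 143. HOXA6 had 91.7 with Xenome, 85.8 with XenofilteR and 108 with Kallisto. HOXA2, which specifies the second pharyngeal arch, was lower, with 12.5, 12.4 and 12.4. HOXA7 was the lowest member of the cluster with Xenome (11.1) and XenofilteR (9.92) but not with Kallisto (83.1). HOXA was the one cluster in which each member reached 10 with Xenome.

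In HOXB (chr17:48528526-48729178), HOXB13 lies far from the rest of the cluster and was followed by HOXB7, known from growth control in carcinoma cells, with means of 349, 353 and 355 with Xenome, XenofilteR and Kallisto. HOXB9 had 200, 201 and 203. These 2 genes and HOXB13 were alike in that the 3 pipelines gave nearly the same mean. HOXB6 had 93.1, 92.2 and 155, HOXB5 43.1, 45.2 and 144, and HOXB3 43.7, 43.6 and 72.2, so for each of these 3 genes Kallisto stood well above the other pipelines. HOXB8, which acts in blood progenitors and the spinal cord, had 2.23, 3.24 and 13.4. HOXB2 and HOXB4 lay between 0.819 and 1.56 with every pipeline, and HOXB1 was listed at 0 by Kallisto and not listed by the others.

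HOXC (chr12:53938831-54056030) had 2 stretches of higher expression with a gap between them. HOXC13, a hair and nail gene, had 1213 with Xenome, 1210 with XenofilteR and 1261 with Kallisto, and its neighbour HOXC12 had 641, 640 and 641. The next 2 genes, HOXC11 and HOXC10, lay between 1.44 and 7.10 with every pipeline. Beyond them the levels were high again. HOXC9 had 490, 477 and 487, HOXC6, often raised in prostate cancer, had 1285, 1292 and 1790, and HOXC4, which acts in the neck vertebrae and in B cells, had 242, 235 and 278. HOXC5, between HOXC6 and HOXC4, had 21.3, 21.04 and 104. In the annotation HOXC4 and HOXC6 share exon bases with each other, and HOXC5 shares them with 2 unnamed genes on its strand, and HOXC9 shares some with HOXC6. Reads in shared exons cannot be given to 1 gene with certainty, so single values of these 4 genes are uncertain to that extent. The same limit holds for HOX genes of other clusters with exon bases shared on their strand, such as HOXA4 (31.3%), HOXB6 (16.6%), HOXA9 (15.9%) and HOXA10 (9.93%).

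HOXD (chr2:176092721-176190907) had no member with a mean of 10 with any pipeline. HOXD8 had 1.62 with both Xenome and XenofilteR and 2.73 with Kallisto, and HOXD13 had 2.62, 2.62 and 2.63. HOXD10 and HOXD11 were listed by Kallisto alone, at 1.15 and 0.0343. HOXD1, HOXD3, HOXD4, HOXD9 and HOXD12 were listed at 0 by Kallisto and were not listed with the other pipelines. The lowest mean listed with Xenome was 0.0562, the value of 2 reads of the deepest library, so a gene that is not listed may still have had a read.

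By paralogue number, the highest levels were toward the posterior end, but the share of genes reaching a mean of 10 was highest in the middle. That share mixes position with cluster, since no HOXD gene reached 10. The HOXD genes are HOXD1 and HOXD3 in groups 1 to 3, HOXD4 and HOXD8 in groups 4 to 8, and HOXD9, HOXD10, HOXD11, HOXD12 and HOXD13 in groups 9 to 13. Of the 8 genes of groups 1 to 3, 4 reached a Xenome mean of 10 and none reached 100. Of the 14 genes of groups 4 to 8, 10 reached 10 and 4 reached 100, and of the 16 genes of groups 9 to 13, 9 reached 10 and 8 reached 100. Those counts are by Xenome. With Kallisto, 11 of the 14 reached 10 and 9 reached 100, against 9 and 8 of the 16, so the order of the genes reaching 100 turned round. Groups 9 to 13 held 86.1% of the summed HOX mean, and 68.4% once HOXB13 was set aside. The median per kb of coding length among genes listed with Xenome was 26.0 in groups 1 to 3, 79.9 in groups 4 to 8 and 430 in groups 9 to 13. With the genes that are not listed taken as 0, these medians were 6.06, 66.6 and 91.2. Over the 17714 protein-coding genes with a Xenome mean, not counting those not listed, the median was 346, and 8 HOX genes lay above it, in falling order HOXB13, HOXA10, HOXC6, HOXC13, HOXC12, HOXC9, HOXA11 and HOXB7. These means have no spread over libraries, so no statement is made on which neighbours in this order differ.

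**Figure D2:**
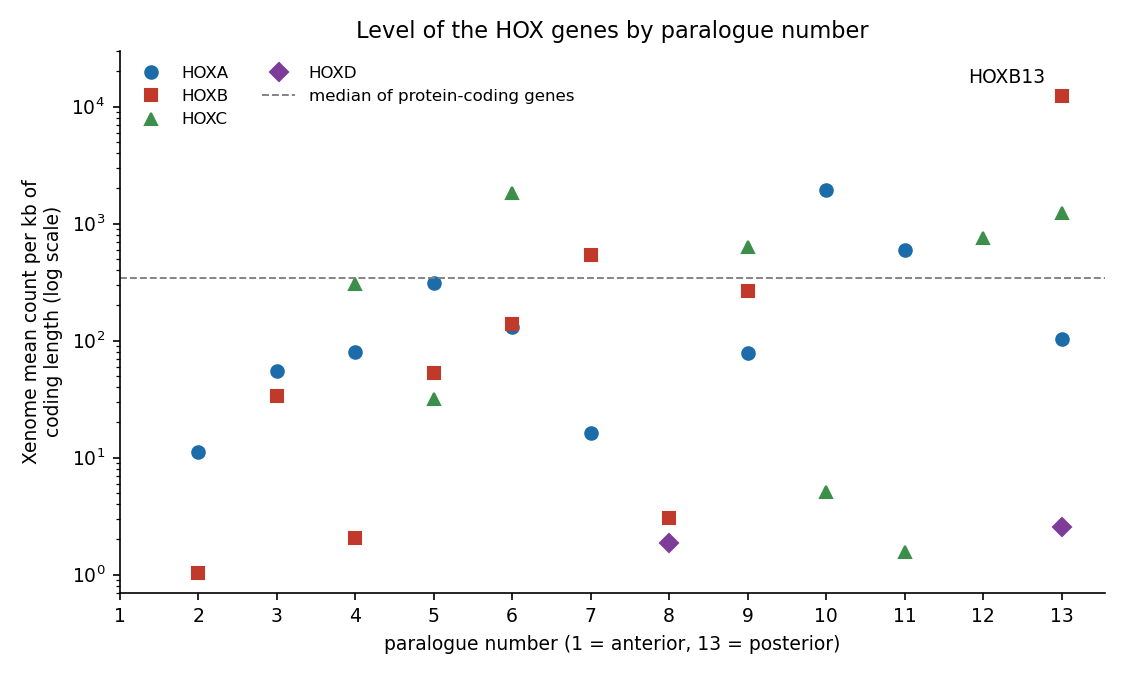
Xenome mean count per kb of coding length (log scale) of 29 of the 30 HOX genes listed with Xenome, against paralogue number, coloured by cluster, with the median of protein-coding genes as a dashed line. HOXB13 is the highest point at 12362, the HOXD genes lie between 1.86 and 2.55, and HOXC10 and HOXC11 fall far below HOXC9 and HOXC12.

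Antisense and other non-coding RNAs of the clusters were counted with Xenome and XenofilteR only. Of 17 that the table listed, 8 had a mean of at least 10 with each of the 2 pipelines. The highest was HOXC13-AS, at 407 with Xenome and 406 with XenofilteR, beside HOXC13 with its high level. The lowest was HAGLR of the HOXD cluster, at 0.791 and 0.790. HOTAIR, between HOXC12 and HOXC11, had 2.33 with both and is given here after its value was seen.

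HOX proteins bind DNA with cofactors of the TALE class (the PBX, MEIS and PKNOX genes). Of 9 such genes, 8 had a Xenome mean of at least 10, 8 a XenofilteR mean of at least 10 and 9 a Kallisto mean of at least 10. PBX2 was highest with each pipeline, at 2327, 2329 and 2915, and MEIS3 was lowest with Xenome and XenofilteR, at 4.66 and 4.60, while the lowest with Kallisto was PKNOX2 at 32.0. The 18 Polycomb, Trithorax and CTCF genes, which keep HOX clusters off or on, each had a mean of at least 100 with every pipeline. KMT2D, a histone methyltransferase, was highest at 9129, 9107 and 9239, and the lowest was CBX7 with Xenome (811) and XenofilteR (814) and EZH1 with Kallisto (851). Of 8 ParaHox and EVX genes, the homeobox genes nearest in kind to the HOX genes, 3 reached 10 with each pipeline. PDX1 was the highest, at 232, 242 and 253, and the lowest were EVX2 with Xenome and XenofilteR (0.0627 with both) and CDX1, CDX4 and GSX1, all listed at 0, with Kallisto.

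The pipelines processed the same libraries, so a ratio of their means compares processing and not culture conditions. Xenome and XenofilteR gave nearly the same level for most HOX genes. Over the 23 HOX genes with a mean of at least 10 with either, the ratio of XenofilteR to Xenome ran from 0.894 for HOXA7 to 1.05 for HOXB5, with a median of 0.996, and over all protein-coding genes compared the median was 1.00.

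Kallisto stood above Xenome at some HOX genes and level with it at others. Among the 24 HOX genes with a mean of at least 10 with either pipeline and above 0 with both, 4 had a Kallisto mean at least 2 times the Xenome mean, namely HOXA7 (7.48 times), HOXB8 (6.02 times), HOXC5 (4.86 times) and HOXB5 (3.35 times), and none had the reverse. That is 16.7% of the HOX genes compared, and over 14861 protein-coding genes the share was 17.6% (and 0.868% for the reverse), so the share is close to that of genes in general. HOXB8 entered this comparison through its Kallisto mean alone, its Xenome mean being 2.23, so it was included because Kallisto was high. Values just below the limit of 2 were 1.87 for HOXA4, 1.67 for HOXB6 and 1.65 for HOXB3. At the other end, 10 of the 24 genes lay within 10% of the Xenome mean, among them HOXB13 at 0.998, HOXC12 at 1.00, HOXA5 at 1.00, HOXC9 at 0.994 and HOXB9 at 1.01. A ratio within 10% was thus seen in 10 of 24 HOX genes and in 57.1% of protein-coding genes, and a ratio above 1.1 in 14 of 24 and in 37.3%. The median ratio was 1.18 over the HOX genes and 1.03 over protein-coding genes.

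In counts, the additional Kallisto level came mostly from highly expressed genes with modest ratios. Summed over the HOX genes, Kallisto exceeded Xenome by 2262, of which HOXA10 gave 45.0% and HOXC6 22.3%. That was 12.0% of the Xenome sum, beside 9.46% over all genes. By cluster the excess was 1400 in HOXA, 670 in HOXC, 189 in HOXB and 2.31 in HOXD. Since HOXB13 itself differed by -22.4, its share of the HOX sum was 49.8% with Kallisto against 55.9% with the other pipelines.

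Sequence shared with mouse moved only weakly with the ratio. Of the 4 genes past 2-fold, 3 had at least 20% of their 31-base sequences in mouse transcripts, with 28.1% for HOXC5, 24.3% for HOXB8 and 20.3% for HOXB5, while HOXA7 had 6.85%. The median over the 4 was 22.3% and over the other 20 genes 9.38%. The 4 include HOXB8, which was compared only because Kallisto was high, so these medians are a description. HOXA5, however, had the highest share of the genes compared, 33.1%, with a ratio of 1.00, and HOXC4 and HOXC9 had 23.2% and 19.1% with ratios of 1.15 and 0.994. Across the 24 genes, Spearman's rho of the ratio with the shared sequence was 0.18, a description across genes that share libraries and, in part, exons. Among protein-coding genes with at least 10% shared sequence, 14.7% of 225 were past 2-fold, and among those below 10% it was 17.4% of 14557. For the HOX genes the counts were 3 of 13 and 1 of 11. HOXB8, included because Kallisto was high, was among the 3, and the difference was not tested. The part of shared sequence in the ratio of a HOX gene was not tested.

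Exons of other genes on the same strand were a further property that moved with the ratio, in a split chosen after the values were seen. Of the 24 genes, 11 had exon bases inside exons of another gene on the same strand, and 10 of the 11 had a ratio above 1.1, the exception being HOXC9. Without such overlap, 4 of 13 had a ratio above 1.1, namely HOXA7, HOXA11, HOXB5 and HOXB8. The same split over protein-coding genes gave 61.7% of 2851 genes with overlap and 31.3% of 11931 genes without it. At the limit of 2 the HOX counts were 1 of 11 with overlap and 3 of 13 without it. HOXB8, included because Kallisto was high, was among the 3, and the difference was not tested. Over protein-coding genes the shares were 34.8% and 13.2%. HOXC5 had the largest overlap, 67.3% of its exon bases, followed by HOXA4 with 31.3%, and the other 3 genes past 2-fold had none on the same strand. On either strand 62.5% of the exon bases of HOXA7 were overlapped, against 3.93% for HOXB5 and 0 for HOXB8. Spearman's rho of the ratio with the overlap was 0.42 across the 24 genes, again as a description. The part of the overlap in the ratio was not tested.

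**Figure D3:**
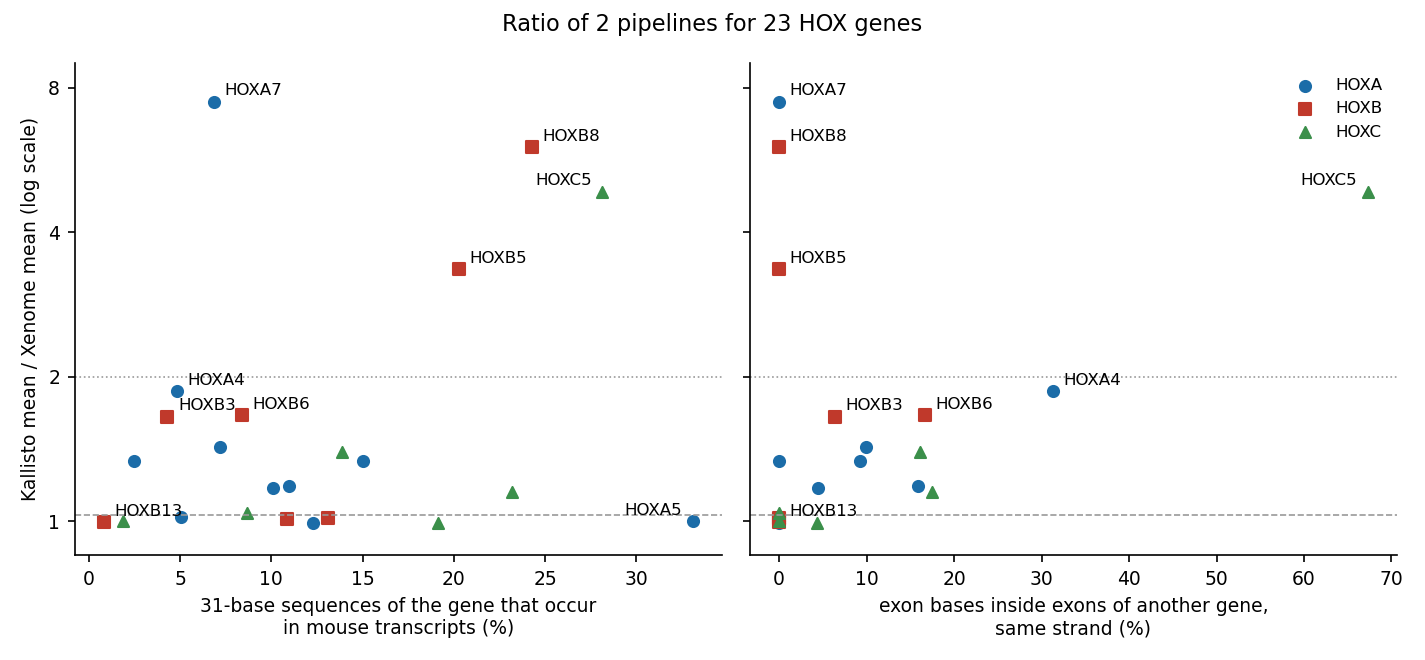
Kallisto mean divided by Xenome mean (log scale) of 23 of the 24 HOX genes compared, against the percent of a gene's 31-base sequences that occur in mouse transcripts (left) and the percent of its exon bases inside exons of another gene on the same strand (right). The dotted line marks a ratio of 2, the dashed line the median of protein-coding genes (1.03), and HOXA7, HOXB8, HOXC5 and HOXB5 lie above 2, while HOXA5, with 33.1% shared sequence, lies at 1.00.

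The deposited means of Xenome and XenofilteR carry 15 digits, from which the whole reads in each of the 6 libraries behind them could be solved for HOX genes with a mean of up to 150. The 6 solved libraries carry no label, so they are called A to F, stand in no group and are compared in no test. Their size factors with Xenome were 5.93, 5.31, 4.86, 0.427, 0.145 and 0.109. In all, 19 HOX genes were solved, 17 with 1 solution and HOXB6 and HOXA13 by the closest pair of Xenome and XenofilteR solutions. A level here is reads divided by the size factor, and 95% exact Poisson intervals cover counting error only.

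Of the 4 genes past 2-fold, HOXB8 had the fewest solved reads with Xenome and HOXB5 the most. HOXA7 had 45, 48, 41, 4, 2 and 2 reads in libraries A to F, with levels between 7.6 and 18.4. HOXB8 had 27, 17, 16, 1, 0 and 0, and a count of 0, read as allowing 3 reads here and for each gene with none, allows a level of up to 20.72 in library E and 27.55 in library F. HOXC5 had 86, 78, 76, 6, 2 and 6 reads, which gave levels of 14.5, 14.7, 15.6, 14.1, 13.8 and 55.1. Library F had the highest level of HOXC5, on 6 reads and with a counting interval of 20.2 to 120, and the median level of 14.6 was below the mean of 21.3. HOXB5 had 314, 300, 296, 21, 3 and 2 reads and levels of 53.0, 56.5, 60.9, 49.2, 20.7 and 18.4, the last 2 being the lowest. With XenofilteR the reads of HOXC5 were 85, 69, 77, 6, 2 and 6, and those of HOXB5 were 331, 318, 315, 25, 2 and 2. HOXA7 had 45, 48, 40, 4, 1 and 2 there. HOXB8 had 27, 14, 15, 0, 0 and 1, and the single read in library F goes with its XenofilteR mean of 3.24 against 2.23 with Xenome.

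Among the other genes with a Xenome mean between 10 and 150, how far the levels of the libraries lay apart differed by gene. HOXA3 ran from 55.1 to 86.6, HOXA4 from 48.3 to 94.3 and HOXA13 from 64.3 to 149. HOXA9 had 532, 415, 468, 20, 7 and 3 reads and levels of 89.8, 78.1, 96.3, 46.9, 48.3 and 27.6. HOXA6 went from 45.9 in library F to 138 in library E, on 5 and 20 reads. HOXB6 had its lowest level in library E, at 27.6 on 4 reads, against 82.7 to 118 in the others. HOXB3 had no read in library F and levels of 48.3 to 62.7 in the rest, and HOXA2 had no read in library E and levels of 9.6 to 27.6 in the rest.

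The solved genes with a Xenome mean below 10 had between 4 and 84 reads over the 6 libraries. HOXD8 had 2, 1, 0, 0, 0 and 1 reads, and since 1 read of library F adds 1.53 to the mean, that read made up most of its mean of 1.62. HOXD13 had 31, 13, 5, 3, 0 and 0 reads, HOXB4 9, 7, 9, 2, 0 and 0, HOXB2 9, 15, 11, 0, 0 and 0, HOXC11 16, 14, 16, 0, 0 and 0, and HOXC10 19, 30, 30, 4, 1 and 0. In libraries D, E and F the level that a count of 0 still allows was 7.03, 20.72 and 27.55, which is above the levels of these genes in libraries A to C (0.2 to 6.2, HOXD8 in library C at 0), so whether they were lower there could not be detected at this depth. Of the 19 solved genes, 10 had reads in all 6 libraries.

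**Figure D4:**
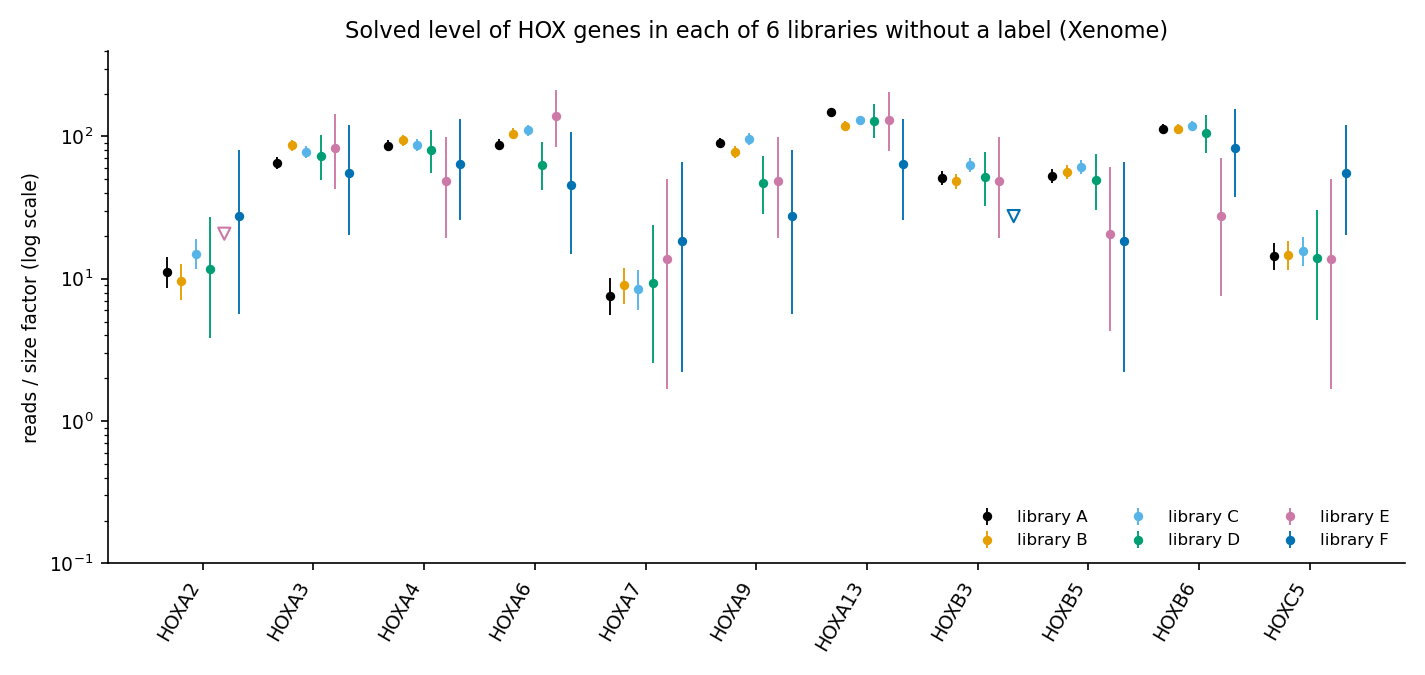
Solved level, that is reads divided by size factor (log scale), of 11 of the 12 solved HOX genes with a Xenome mean of at least 10 in each of 6 libraries without a label. Points are single libraries, bars are 95% exact Poisson intervals of counting error, and open triangles mark the level of 3 reads where a library had none. Bars are widest for libraries E and F, and library F holds the highest point of HOXC5 and library E the lowest of HOXB6.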

How the data were processed

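Stranded mRNA libraries were read as paired 50-base reads to at least 40 M reads per library, per the labels. The authors ran 3 pipelines. In the first, Xenome picked out human reads, which were aligned to GRCh38 by HISAT2 and counted by featureCounts. In the second, HISAT2 aligned reads to each species' genome, XenofilteR took mouse reads out and featureCounts counted the rest. In the third, Kallisto quantified against human and mouse transcripts joined in 1 index. The deposited mean count of each gene and pipeline is the authors' DESeq2 mean over the libraries of C4-2B alone and of the co-culture. The mapping of an unlabelled solved library to a group was not attempted. The other deposited columns (log2 fold change, its standard error, Wald statistic, p-value and adjusted p-value of the authors' comparison) hold the authors' comparison and were not used. Because the table gives no value per sample, no test between groups was run.

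From the 41734 rows, 21 that list a gene again were dropped. The members and gene lists were chosen with earlier results of these data known. Every HOX gene with a mean of at least 10 with any pipeline, or at least 2-fold apart between Kallisto and Xenome, is given with values, apart from a gene and sequences that are not reported here, the others by range, and of each other list the highest and lowest gene. Coding length, exon overlap and shared 31-base sequences came from GENCODE 44 and M21 (distinct 31-base sequences of all transcripts of a gene, either strand of mouse transcripts); all 38 genes matched by identifier, 30 with the same start and end as in the table, whose coordinates are printed. The Kallisto match length of 31 is that tool's default and its setting is not given in the sources used here.

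Reads were solved by writing each mean as a sum of whole reads times the value of 1 read of each library. All 15274 Xenome means and all 15160 XenofilteR means below 3 came out as whole reads within 2e-12 of the mean. On 200 simulated means below 100, every one had 1 solution, the true one. Of the real means, HOXB6 had 2 solutions with each pipeline and HOXA13, above the simulated range, 8 with Xenome and 17 with XenofilteR. Human counts per library, 4.61 M to 251 M with Xenome, are estimates (size factor times summed mean), and 3 reads were taken as what a count of 0 allows. Alternatives were the other pipelines, minimum means of 1 and 50, folds of 1.5 and 4, no filter, the XenofilteR denominator, a ratio centred on its median, and levels per length. The tools were scipy 1.17.1 and numpy 2.4.6 under Python 3.11.15, with numba 0.67.0 for the 31-base sequences, pandas 2.3.3 for tables and matplotlib 3.10.9 for plots.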

Additional observations from a re-analysis of the deposited data

How the results depend on the processing

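The number of HOX genes with a mean of at least 10 was 23 with Xenome and stayed within 1.5 times of that, from 17 (minimum of 50) to 30 (minimum of 1), under the 4 alternatives run. The HOXB13 share of the HOX sum, 55.9% with Xenome and with XenofilteR, was 49.8% with Kallisto, 57.4% per kb of coding length and, chosen after the data were seen, 53.2% per kb of exon union. The 4 genes with a Kallisto mean at least 2 times the Xenome mean became 7 of 24 at a fold of 1.5, beside 21.8% of protein-coding genes, and 0 of 17 when both means had to be at least 50, beside 5.92%, since the Xenome means of all 4 lie below 50. The count was 3 of 24 at a fold of 4, beside 12.3% of protein-coding genes, and 4 of 30 without a filter, beside 18.0%. It was 4 of 24 with XenofilteR as denominator, beside 17.5%, and 4 of 24 after centring, beside 17.2%. With XenofilteR, 10 solved genes again had reads in all 6 libraries. Among them are HOXB6 and HOXA13, which were solved by matching the pipelines, so their agreement was set by that choice. With HOXB6 and HOXA13 left out, 58 of the 102 gene and library values of the 17 genes with 1 Xenome solution were identical to Xenome. The largest difference was 35 reads.

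No paired analysis was possible because the deposited values are means over both groups and no result comes from a test, and labelled replicates were not left out, because the solved libraries carry no label. With 1 solved library left out in turn, an alternative chosen after the data were seen, 10 to 12 of the 12 solved genes with a Xenome mean of at least 10 stayed there, HOXA2 and HOXA7 falling to 9.49 and 9.65 without library F. The mean moved by over 1.5 times in 3 solved genes, all under 10, namely HOXD8 (0.105 without library F), HOXB4 (0.937 without library D) and HOXD13 (1.74 without library D). The level that 3 reads give ran from 0.51 in library A to 27.55 in library F.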

Other observations

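The estimated human counts of the 6 libraries without a label fell into 2 ranges with Xenome, at 251, 225 and 206 M in libraries A, B and C, and at 18.1, 6.14 and 4.61 M in libraries D, E and F. The labels put these libraries in no group, and no difference between them was tested.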
